A study of Mus musculus with 4 samples.

Results

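The genes described here encode the 3 receptor tyrosine phosphatases of the LAR family (Ptprd, Ptprf and Ptprs) and 7 of the postsynaptic adhesion proteins that bind them (Slitrk1, Slitrk2, Slitrk3, Slitrk4, Slitrk5, Il1rapl1 and Lrrc4b). They are 10 of the 52636 mouse genes in the deposited tables. They were chosen by name as a receptor and ligand set, with earlier results of these data known, and Lrrc4b was included because its counts disagree between the libraries. That disagreement is therefore given as a description.

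The study is an RNA immunoprecipitation experiment on the hippocampus of wild-type C57BL/6 mice at postnatal day 40. It has 2 libraries from anti-YTHDF2 immunoprecipitates and 2 input libraries from lysate RNA, and its stated purpose is to find the mRNA targets of YTHDF2. YTHDF2 is a reader of the mRNA modification m6A that speeds the decay of transcripts it holds. The values here come from the 2 input libraries, and the immunoprecipitated libraries were not analysed here. No transgene, treatment or genotype difference distinguishes the inputs. The labels do not give the sex of the animals, how many animals a library holds, or whether the inputs came from separate animals, so the spread between them may be technical.

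LAR family phosphatases sit mainly in the axonal membrane, where immunoglobulin-like and fibronectin-like domains face the synaptic cleft and a pair of phosphatase domains face the cytoplasm. Their ectodomains bind leucine-rich repeat and immunoglobulin-type proteins of the postsynaptic membrane, and this contact can induce presynaptic and postsynaptic assembly in culture. Slitrk proteins, IL1RAPL1 and NGL-3, the product of Lrrc4b, are such ligands. Short alternatively spliced exons of the phosphatases set which ligand binds; gene-level counts do not resolve them.

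The 3 phosphatase genes encode closely related proteins, so the first question was whether their counts can be told apart. The catalytic signature of tyrosine phosphatases (His-Cys, any 5 residues, then Arg) was found 2 times in each coding sequence, once per phosphatase domain. The sequences below are the 30 coding bases from that His codon on, from GENCODE M21 transcripts on GRCm38, written 5′ to 3′ on the coding strand. They are shown because they hold this signature, which belongs to tyrosine phosphatases in general and not to this family alone. Capitals mark the bases that are not the same in all 3 genes. In the first domain, 8 of 30 positions differed while the encoded residues were the same in all 3. The stretches lie on the minus strand and each crosses an intron, at chr4:75957360-75981961 for Ptprd, chr4:118212228-118212334 for Ptprf and chr17:56417490-56417598 for Ptprs.
Ptprd: caCtgcagTgcTggtgtTggCAgAacTggc
Ptprf: caTtgcagTgcGggtgtGggGCgCacAggc
Ptprs: caCtgcagCgcGggtgtGggGCgCacTggc

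In the second domain 10 of 30 positions differed, again with the same residues encoded. These stretches lie at chr4:75947157-75950658 for Ptprd, chr4:118210483-118210624 for Ptprf and chr17:56413843-56413958 for Ptprs, again across an intron on the minus strand.
Ptprd: caTtgcagTgcCggCgtTggAAgAacTggA
Ptprf: caCtgcagTgcTggTgtGggCCgCacCggT
Ptprs: caCtgcagCgcCggAgtGggCAgGacCggA

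Identical runs between related genes were short. The longest coding run shared by any pair of the phosphatases was 27 bases, between Ptprf (chr4:118248945-118248971) and Ptprs (chr17:56447406-56447432). The longest among the 5 Slitrk genes was 20 bases, between Slitrk1 (chr14:108912625-108912644) and Slitrk4 (chrX:64271450-64271469). Lrrc4b (chr7:44461167-44461187, plus strand) and its paralog Lrrc4 (chr6:28831175-28831195, minus strand) shared at most 21 bases. The other 4 of these genes are on the minus strand.
Ptprf and Ptprs: ggcaagtacgagtgtgtggccaccaac
Slitrk1 and Slitrk4: aacccttgggactgcacctg
Lrrc4b and Lrrc4: ggcctttgagtacctgtccaa

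No 31-base word of any of the 10 genes' transcripts occurred in a transcript of another of the 10. The share of such words found in transcripts of any other gene was 0.780% for Slitrk4 and lower for the rest, with 0 for Slitrk1 and Slitrk5. Among the phosphatases it was 0.190% for Ptprd, 0.0537% for Ptprf and 0.0131% for Ptprs. The length of the reads is unknown here, and how multi-mapping reads were handled is not stated.

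The 2 input libraries are named by depth, since their column names do not match the labelled replicate numbers. The deeper held 3334451 counts and the shallower 2563069. Levels are CPM, counts scaled to a common library total, with exact 95% Poisson intervals for single libraries that cover counting error only. The detection limit, taken as 3 counts, was 0.900 CPM in the deeper and 1.17 CPM in the shallower library. Mitochondrial genes took 3.65% of counts in the deeper and 1.73% in the shallower library. Cell type markers were summed to describe the tissue. The 8 excitatory neuron markers were all present and summed to 6790 CPM in the deeper and 6714 CPM in the shallower library. Camk2a (3965 and 3886 CPM) and Slc17a7 (1132 and 1424 CPM) made up most of this. In the same order, the 5 oligodendrocyte markers summed to 3419 and 3479 CPM. The 6 interneuron markers summed to 490 and 512 CPM, and the 2 oligodendrocyte precursor markers to 107 and 106 CPM. The 4 microglia markers summed to 145 and 139 CPM, and the 4 blood markers to 50.1 and 55.0 CPM. The 3 thalamus markers had 41.4 and 39.4 CPM, and the 3 striatum markers 26.4 and 42.9 CPM. Such sums alone do not establish the brain region. The 5 astrocyte markers summed to 6150 CPM in the deeper and 4764 CPM in the shallower library. Most of this difference came from Slc1a2, with 5277 CPM in the deeper and 3900 CPM in the shallower library. Aqp4 was also higher in the deeper library (151 and 110 CPM), and Slc1a3 was nearly even (487 and 476 CPM). Gfap (222 and 261 CPM) and Aldh1l1 (13.2 and 16.8 CPM) were lower there. In the same order, the 3 endothelial markers summed to 11.1 and 16.0 CPM. The 3 choroid plexus markers summed to 24.3 CPM in the deeper and 35.1 CPM in the shallower library: Kl had 74 and 83 counts, Ttr 7 in each library and Folr1 none. The part of the mitochondrial and Slc1a2 differences in the ratios given further on was not tested.

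All 10 genes were detected in both libraries, and all reached a mean of 20 CPM. Together they held 1866 CPM in the deeper and 1899 CPM in the shallower library. The phosphatases summed to 1211 ± 216 CPM and the ligands to 672 ± 193 CPM (SD, n = 2). In a bulk lysate, fewer cells of a type and less RNA per cell cannot be told apart.

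Ptprs, which encodes the phosphatase PTPσ, held most of the family's counts. Ptprs (ENSMUSG00000013236, chromosome 17, 56412426 to 56476483, minus strand of GRCm38) gave 2542 counts in the deeper and 2759 counts in the shallower library. These are 762 CPM (733 to 793) in the deeper and 1076 CPM (1037 to 1117) in the shallower library. The level was lower in the deeper library by more than counting error, and the mean was 919 ± 222 CPM (SD, n = 2).

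Ptprd, which encodes PTPδ, came next. Ptprd (ENSMUSG00000028399, chromosome 4, 75941238 to 78211961, minus strand) had 717 counts in the deeper and 456 in the shallower library, which are 215 CPM (200 to 231) and 178 CPM (162 to 195). Its mean was 196 ± 26.2 CPM (SD, n = 2). Ptprd was higher in the deeper library, the opposite of Ptprs.

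Ptprf, the gene of LAR itself, had the fewest counts of the 3. Ptprf (ENSMUSG00000033295, chromosome 4, 118208213 to 118291405, minus strand) had 269 counts in the deeper and 280 in the shallower library. These are 80.7 CPM (71.3 to 90.9) in the deeper and 109 CPM (96.8 to 123) in the shallower library, with a mean of 94.96 ± 20.2 CPM (SD, n = 2). The order of counts, Ptprs, Ptprd and then Ptprf, was the same in both libraries.

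The makeup of the phosphatase family can be given as shares of its counts, which do not depend on the library total. Ptprs held 72.1% of phosphatase counts (95% exact binomial interval 70.5 to 73.5) in the deeper and 78.9% (77.6 to 80.3) in the shallower library. Ptprd held 20.3% (19.0 to 21.7) in the deeper and 13.0% (11.9 to 14.2) in the shallower. Ptprf held 7.62% (6.77 to 8.55) and 8.01% (7.13 to 8.96), which differ by less than counting error. The libraries thus differed in the balance of Ptprs and Ptprd, which was 3.55 counts of Ptprs per count of Ptprd in the deeper and 6.05 in the shallower library. Since the longest coding sequences are nearly equal (5724 bases for Ptprs, 5739 for Ptprd and 5697 for Ptprf), these ratios changed little per coding length, to 3.55 and 6.07.

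**Figure D1:**
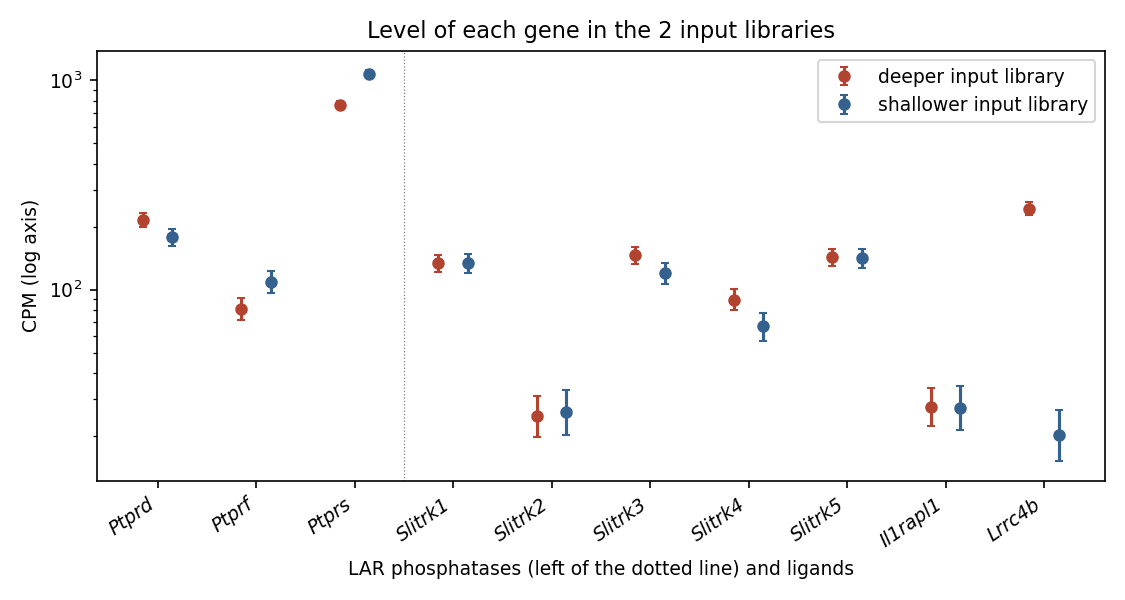
Level of each gene in CPM on a log axis, in the deeper (red) and the shallower (blue) input library, with exact 95% Poisson intervals. Ptprs is at 762 and 1076 CPM, and Lrrc4b is the gene whose libraries lie far apart, at 244 and 20.3 CPM.

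Among the Slitrk genes, Slitrk1 and Slitrk5 were even between the libraries. Slitrk proteins have leucine-rich repeats outside the cell and bind PTPδ and PTPσ. Slitrk1 (ENSMUSG00000075478, chromosome 14, 108908800 to 108914158, minus strand) had 446 and 343 counts in the deeper and the shallower library, or 134 CPM in each. Slitrk5 (ENSMUSG00000033214, chromosome 14, 111675097 to 111683141, plus strand) had 475 counts in the deeper and 362 in the shallower library, or 142 and 141 CPM. Both genes differed between libraries by less than counting error.

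Slitrk3, whose protein promotes inhibitory synapse formation through PTPδ, was less even. Slitrk3 (ENSMUSG00000048304, chromosome 3, 73047265 to 73057803, minus strand) had 486 counts in the deeper and 307 in the shallower library, or 146 CPM (133 to 159) and 120 CPM (107 to 134). Slitrk4 (ENSMUSG00000046699, chromosome X, 64264885 to 64276996, minus strand) had 299 and 171 counts, or 89.7 CPM (79.8 to 100.4) in the deeper and 66.7 CPM (57.1 to 77.5) in the shallower library. Slitrk4 was higher in the deeper library beyond counting error, and the Poisson intervals of Slitrk3 barely overlap.

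Slitrk2 had the fewest counts of the 5 Slitrk genes. Slitrk2 (ENSMUSG00000036790, chromosome X, 66649318 to 66661393, plus strand) had 83 counts in the deeper and 67 in the shallower library, or 24.9 CPM (19.8 to 30.9) and 26.1 CPM (20.3 to 33.2). It held 4.64% of the counts of the 5 Slitrk genes in the deeper and 5.36% in the shallower library. Slitrk1, Slitrk3 and Slitrk5 each held between 24.6% and 29.0% in either library, and Slitrk4 16.7% and 13.7%.

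Il1rapl1, an X-linked gene whose human counterpart is mutated in intellectual disability and whose protein binds PTPδ, was low and stable. Il1rapl1 (ENSMUSG00000052372, chromosome X, 86740870 to 88115645, minus strand) had 92 counts in the deeper and 70 in the shallower library, or 27.6 CPM (22.2 to 33.8) and 27.3 CPM (21.3 to 34.5). The Poisson intervals overlap almost fully.

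Lrrc4b, which encodes NGL-3, a ligand of all 3 phosphatases, did not agree between the libraries. Lrrc4b (ENSMUSG00000047085, chromosome 7, 44429018 to 44463351, plus strand) had 814 counts in the deeper and 52 in the shallower library. These are 244 CPM (228 to 261) in the deeper and 20.3 CPM (15.2 to 26.6) in the shallower library. Per kilobase of coding sequence this was 115 CPM in the deeper library, above each other ligand there. It was 9.52 CPM in the shallower, below each of them. The place below Slitrk2 (67 counts) and Il1rapl1 (70 counts) rests on few counts, and the CPM intervals of these genes overlap that of Lrrc4b. The mean of Lrrc4b, 132 ± 158 CPM (SD, n = 2), has a spread larger than itself and describes neither library.

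The libraries were compared by a log2 ratio, deeper over shallower, of CPM plus 0.5 after scaling by the trimmed mean of M values (TMM) over genes averaging 5 CPM or more. The intervals are exact 95% binomial intervals for counting error and leave out the 0.5. Since both libraries belong to 1 group, no test was made. Lrrc4b had a log2 ratio of 3.70 (3.33 to 4.17), a 12.99-fold higher level in the deeper library. It was the only 1 of the 10 genes at least 2-fold apart. Of all 6915 genes averaging 20 CPM or more, 3.93% differed 2-fold or more, and 1.98% did so with the deeper library higher. Lrrc4b was selected on this value, and its rank of 6 among 6308 nuclear protein-coding genes at that level is a description.

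The other 9 genes ran from -0.35 to 0.57 and all lay within 1.5-fold, as did 84.4% of all genes at 20 CPM or more. Ptprs (-0.35, -0.43 to -0.27) and Ptprf (-0.29, -0.54 to -0.05) were lower in the deeper library. Slitrk4 (0.57, 0.30 to 0.85), Slitrk3 (0.43, 0.22 to 0.64) and Ptprd (0.42, 0.25 to 0.59) were higher. Intervals of Slitrk1, Slitrk2, Slitrk5 and Il1rapl1 held 0. In all, 6 of 10 intervals left out 0, where 43.1% of genes at 20 CPM or more had such an interval. The median of the 10 genes was 0.16 and that of all genes 0.04.

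**Figure D2:**
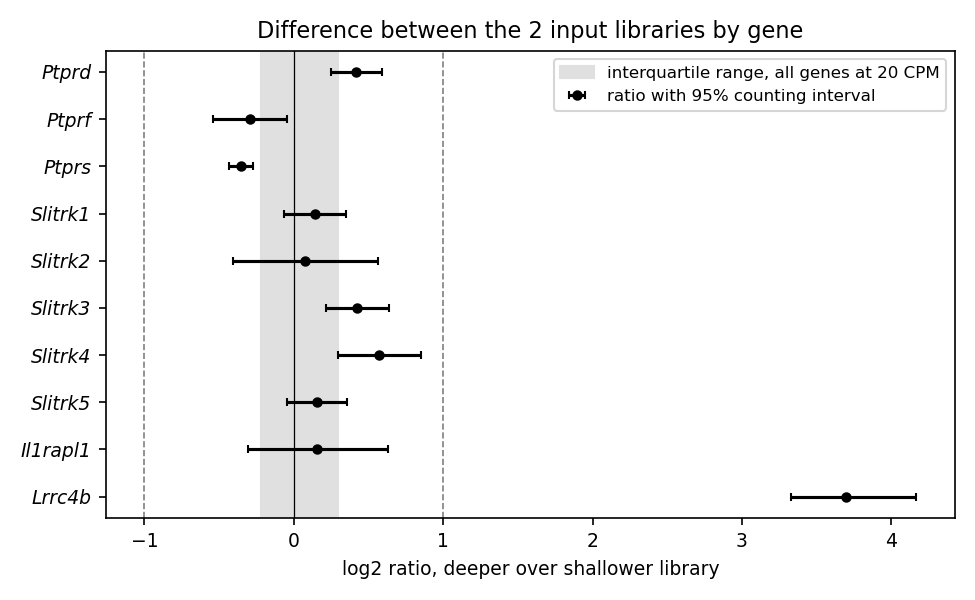
Log2 ratio of the deeper over the shallower input library for each gene (points) with exact 95% binomial counting intervals. The grey band is the interquartile range of all genes at 20 CPM or more (-0.22 to 0.30) and dashed lines mark a 2-fold difference. Only Lrrc4b, at 3.70, lies beyond them.

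The counts of Lrrc4b were set against those of nearby and similar genes. No annotated gene overlaps Lrrc4b on either strand. Of its transcripts' 31-base words, 0.138% occur in another gene. The nearest protein-coding gene upstream, the synaptotagmin gene Syt3, lies 28831 bases away and had 152 counts in the deeper and 154 in the shallower library (log2 ratio -0.25, -0.59 to 0.08). The nearest downstream, Aspdh, is 2040 bases away and had 3 and 8 counts. Emc10, 26586 bases downstream on the other strand and named after its values were seen, had 44 counts in the deeper and 238 in the shallower library (-2.63, -3.17 to -2.20), the opposite of Lrrc4b.

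The paralogs of Lrrc4b did not share its difference. Lrrc4, which encodes NGL-2, had 410 counts in the deeper and 265 in the shallower library (0.39, 0.17 to 0.62). Lrrc4c, which encodes NGL-1, had 360 and 272 counts (0.17, -0.06 to 0.40). The 5 nuclear protein-coding genes with a ratio closest to that of Lrrc4b were Hnrnpa3 (3.94), Zfp260 (3.21), Aagab (3.10), Kcnab2 (3.06) and Urgcp (3.05), at 0.24 to 0.65 log2 units from it over 2 libraries. Of these, Kcnab2, a potassium channel beta subunit gene, had 2019 counts in the deeper and 204 in the shallower library.

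Genes overlapping the other 9 had few counts. Ptprd overlaps 9 annotated genes, the highest of which had 14 counts in the deeper and 31 in the shallower library. Il1rapl1 overlaps 5, with at most 4 and 2 counts. Ptprf and Ptprs each overlap 1 microRNA gene, with 1 count in each library for Ptprf and none for Ptprs. No annotated gene overlaps a Slitrk gene.

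Levels of different genes are compared per length. The deposited FPKM values divide a depth-scaled count by 1 length per gene. For 8 of the 10 genes this length was within 1 base of the mean over the gene's GENCODE M21 transcripts, short fragments included; Slitrk1 (4249 bases used, 5359 annotated) and Slitrk5 (4806 used, mean 2834) were the exceptions. For Ptprs the length was 1818 bases, which is 26.5% of its longest transcript (6855 bases, among 21). The share was 33.4% for Ptprd and 43.4% for Ptprf, against 49.9% for Slitrk4, 69.3% for Slitrk2, 79.3% for Slitrk1, 89.1% for Slitrk3 and 99.5% for Slitrk5. It was 48.0% for Il1rapl1 and 53.2% for Lrrc4b. Compared with scaling by the longest transcript, FPKM therefore raises each phosphatase relative to each Slitrk gene, least for Ptprf relative to Slitrk4.

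By FPKM Ptprs was highest, with 419 in the deeper and 592 in the shallower library, and its mean stood above 99.8% of the 14815 nuclear protein-coding genes with a count. Lrrc4b followed at 168 FPKM in the deeper and 13.97 FPKM in the shallower library. Ptprd had 59.4 ± 7.94 FPKM, Slitrk3 32.5 ± 4.49, Slitrk1 31.5 ± 0.0114, Slitrk5 29.5 ± 0.179 and Ptprf 28.6 ± 6.07 (SD, n = 2 each). Slitrk4 (18.5 ± 3.83), Il1rapl1 (6.26 ± 0.0451) and Slitrk2 (4.74 ± 0.164) were lowest. The ranges over the libraries overlapped for the neighbours Lrrc4b and Ptprd, Slitrk3 and Slitrk1, and Slitrk5 and Ptprf, so these pairs are not separated. Ptprf (24.3 to 32.8 FPKM) also overlapped Slitrk1 and Slitrk3. A range over 2 libraries can be narrower than counting error, as it was for Slitrk1. A lack of overlap alone therefore does not separate neighbours.

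Per kilobase of the longest coding sequence the order changed. Ptprs was still highest (161 ± 38.8 CPM per kilobase). Slitrk1 came second (64.0 ± 0.0233), then Lrrc4b (62.1 ± 74.3), Slitrk5 (49.4 ± 0.299), Slitrk3 (45.1 ± 6.24), Ptprd (34.2 ± 4.57), Slitrk4 (31.1 ± 6.46), Ptprf (16.7 ± 3.55), Il1rapl1 (13.1 ± 0.0946) and Slitrk2 (10.04 ± 0.348). Ranges over the libraries overlapped for the neighbours Slitrk1 and Lrrc4b, Lrrc4b and Slitrk5, Slitrk5 and Slitrk3, and Ptprd and Slitrk4. These pairs are not separated, and the range of Lrrc4b (9.52 to 115) spanned every other gene but Ptprs. Ptprd was 1.89 ± 0.253 times as high as Slitrk1 by FPKM and 0.535 ± 0.0717 times by coding length (SD, n = 2 libraries). Ptprs was 16.1 ± 3.87 times Slitrk1 by FPKM and 2.51 ± 0.606 times by coding length. By their means, Ptprs was at the top and Il1rapl1 and Slitrk2 at the bottom on both scales. In the shallower library alone, Lrrc4b was lowest per coding length (9.52, beside 10.3 for Slitrk2 and 13.1 for Il1rapl1). These values rest on 52, 67 and 70 counts, whose counting intervals overlap in CPM.

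**Figure D3:**
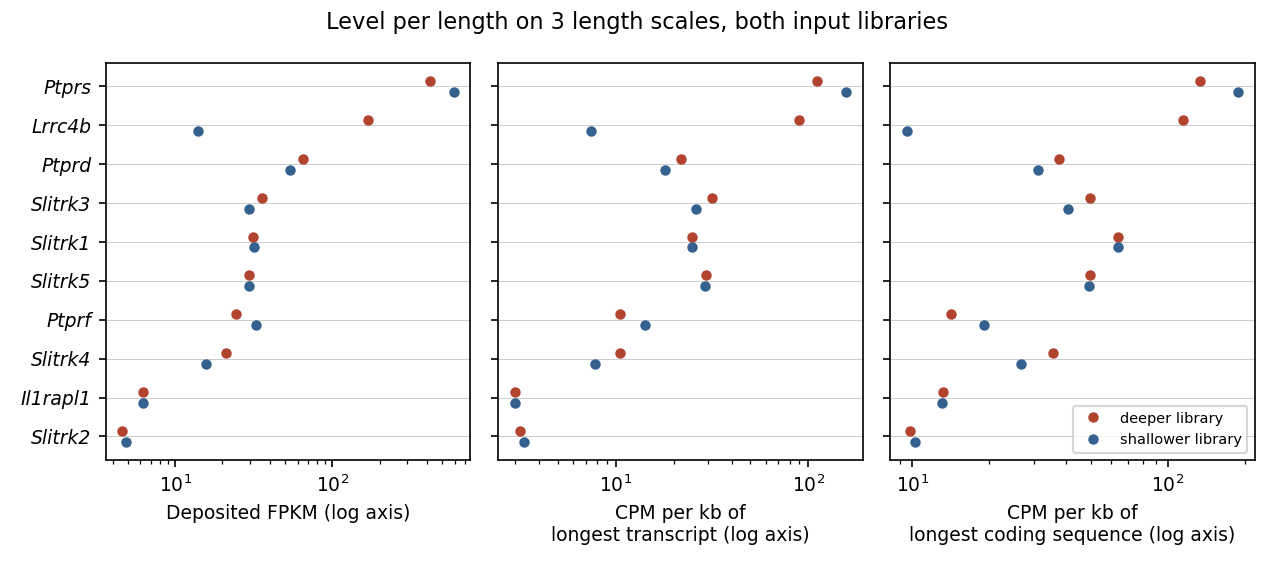
Level of each gene per length in the deeper (red) and the shallower (blue) input library, on log axes, as deposited FPKM, as CPM per kilobase of the longest transcript and as CPM per kilobase of the longest coding sequence. Ptprs leads on each scale by its mean, while Ptprd stands above Slitrk1 by FPKM and below it by coding length.

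The balance of ligands to phosphatases differed between the libraries with and without Lrrc4b. Ligand counts were 0.764 of phosphatase counts in the deeper and 0.393 in the shallower library, and without Lrrc4b they were 0.533 and 0.378. Per coding length the 7 ligands together were 1.82 times the phosphatases in the deeper and 0.895 times in the shallower library. Without Lrrc4b the values were 1.20 and 0.855. Per coding length, with or without Lrrc4b, the ligands were thus above the phosphatases in the deeper library and below them in the shallower one. Coding length leaves out untranslated bases, and compared with the longest transcript it raises each ligand relative to Ptprs. The longest transcript and coding sequence had 5359 and 2091 bases for Slitrk1, and 6855 and 5724 for Ptprs. The ratio was not computed per longest transcript, so this order holds for coding length only. By FPKM they were below in both libraries, at 0.584 in the deeper and 0.193 in the shallower. Without Lrrc4b the FPKM ratios were 0.253 and 0.172. The ratio per coding length was added after seeing the data.

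Base composition separated the genes as well. GC content, measured on the transcript with the longest coding sequence, ran from 34.7% to 38.0% in the 3 X-linked genes Slitrk4, Il1rapl1 and Slitrk2 and from 43.8% to 63.1% in the 7 autosomal ones. Ptprf (58.1%), Ptprs (60.3%) and Lrrc4b (63.1%) were above the upper quartile of nuclear protein-coding genes at 20 CPM or more (55.1%). Across 6308 such genes the log2 ratio was lower at higher GC content (Spearman's rho = -0.413, across genes, which share the 2 libraries and are not independent). Ptprf and Ptprs, with high GC, had negative ratios, and Slitrk4, with the lowest GC, the highest ratio but for Lrrc4b. Il1rapl1 (36.2% GC) and Slitrk2 (38.0%), the next lowest in GC, had only 0.16 and 0.07. These were below Ptprd (43.8% GC, 0.42) and Slitrk3 (47.2% GC, 0.43). A part of GC content in these ratios was not tested. With the GC trend taken out, Slitrk4 had 0.01, Ptprd 0.18 and Ptprs -0.19, while Slitrk3 kept 0.31. Slitrk2 and Il1rapl1 were then at -0.38 and -0.35.

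Lrrc4b stood against that trend. The other 95 genes within 1 percentage point of its GC content had a median log2 ratio of -0.19, and 2 of them were at least 2-fold higher in the deeper library. With the trend taken out Lrrc4b had 3.85. Lrrc4b was selected on its ratio, so these values are a description, and the cause of its difference was not tested.

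**Figure D4:**
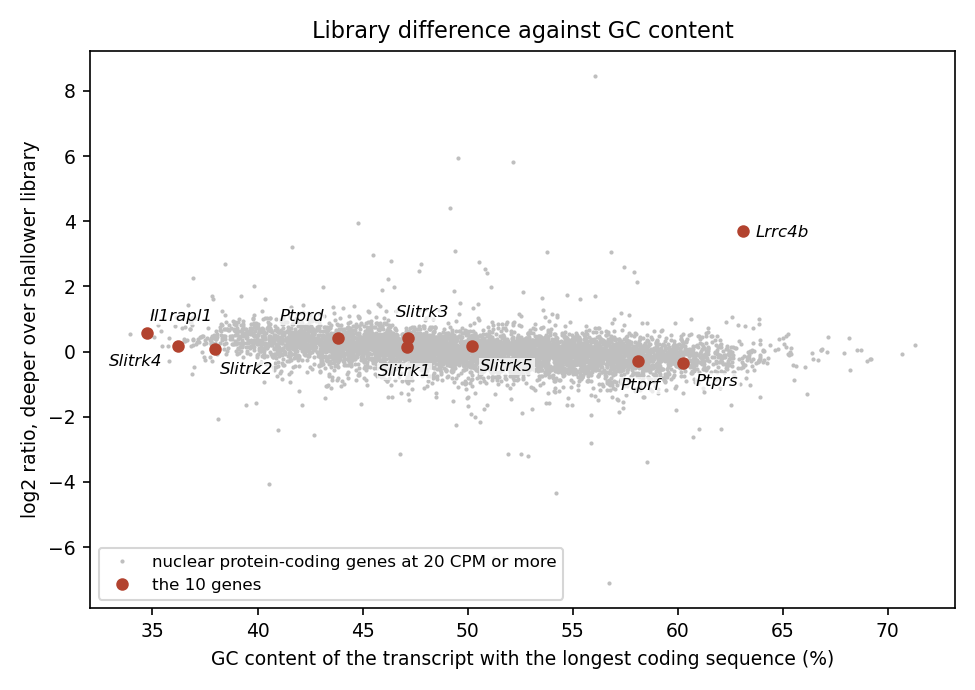
Log2 ratio of the deeper over the shallower library against GC content of the transcript with the longest coding sequence, for 6308 nuclear protein-coding genes at 20 CPM or more (grey) and the 10 genes (red, named). Lrrc4b, which was included because of its disagreement, is at 63.1% GC and 3.70. The median of genes within 1 percentage point of its GC content is -0.19. The other 9 lie between -0.35 and 0.57.

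Because the study concerns an m6A reader, coding sequences were searched on the coding strand for the letters GGACT, a common form of the m6A consensus. A match is a description of the sequence and not a modified site. Of 21260 protein-coding genes with at least 300 coding bases, 73.6% held at least 1 match, with a median of 1.05 per kilobase (quartiles 0 and 1.75). Ptprs held 9 (1.57 per kilobase), Ptprf 6 (1.05) and Ptprd 4 (0.697). Slitrk2 (2.36 per kilobase), Slitrk3 (2.04) and Slitrk1 (1.91) lay above the upper quartile. Slitrk4 held 3, Slitrk5 3 and Il1rapl1 3 matches, and Lrrc4b held 0 in 2130 coding bases. The matches nearest the stop codon are shown for the most abundant phosphatase and for Slitrk5, whose match lies 44 bases from the end of its coding sequence, with GGACT in capitals. They are at chr17:56414051-56414079 (minus strand) and chr14:111681759-111681787 (plus strand) on GRCm38.
Ptprs: gttccagttcacGGACTggccagagcagg
Slitrk5: caatgttgagccGGACTacctcgaagtgc

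Partner genes of the same adhesion system were measured with the lists chosen for this description. Among 6 other postsynaptic ligands, 4 reached 20 CPM and 0 of these were at least 2-fold apart. Over all genes at 20 CPM or more the share was 3.93%, so 0 in this or a later list is near that share. Ntrk3, which encodes the neurotrophin receptor TrkC and a ligand of PTPσ, had 2243 counts in the deeper and 1424 in the shallower library (614 ± 82.8 CPM, SD, n = 2). At 256 ± 34.5 FPKM and 237 CPM per kilobase of coding sequence, its mean was above that of each of the 7 ligands on both scales. Lrfn5, the SALM5 gene, had 114 ± 10.1 CPM, Il1rap, which encodes the interleukin-1 receptor accessory protein, 63.1 ± 21.4 CPM, and Lrfn4, the SALM3 gene, 36.4 ± 17.5 CPM. Il1rap was higher in the deeper library (0.84, 0.54 to 1.17) and Lrfn4 lower (-0.87, -1.30 to -0.46). Slitrk6 had 2 counts in the deeper and 5 in the shallower library and Il1rapl2 had 4 and 5, so the sixth Slitrk gene and the second IL1RAPL gene were near the detection limit.

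All 4 genes of the NGL paralog and netrin-G list reached 20 CPM and 0 were 2-fold apart. Netrin-G proteins are the axonal partners of NGL-1 and NGL-2. Lrrc4 had 113 ± 13.8 CPM, Lrrc4c 107 ± 1.30, Ntng2 62.9 ± 5.14 and Ntng1 34.3 ± 3.25 (SD, n = 2 each). Lrrc4b had more counts than any of the 4 in the deeper library and fewer in the shallower one.

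Of 12 genes for cytoplasmic partners of the phosphatases, 10 reached 20 CPM and 0 were 2-fold apart, with a median log2 ratio of -0.12 beside 0.04 for all genes. Ctnnb1, which encodes beta-catenin, had 304 ± 13.6 CPM and Enah, an actin regulator gene, 261 ± 15.6 CPM. Trio, which encodes a guanine nucleotide exchange factor, had 220 ± 73.0 CPM and was lower in the deeper library (-0.54, -0.71 to -0.38). Ppfia2, which encodes a liprin-alpha, a scaffold that binds the second phosphatase domain, had 169 ± 9.01 CPM (SD, n = 2 each).

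Proteoglycans, whose sugar chains bind PTPσ, were covered by 16 genes, of which 9 reached 20 CPM and 0 of these were 2-fold apart. Ncan (449 ± 13.4 CPM), Sdc3 (249 ± 8.02), Gpc1 (166 ± 5.01) and Agrn (153 ± 24.3) had the most counts (SD, n = 2 each), and the median log2 ratio of the 9 was 0.08. Of 18 other receptor-type tyrosine phosphatase genes, 11 reached 20 CPM, 0 of them 2-fold apart, with a median of 0.04. Ptprn (371 ± 64.6 CPM), Ptprn2 (358 ± 3.35), Ptprz1 (283 ± 14.8) and Ptprj (272 ± 17.5) had the most counts (SD, n = 2 each). Per kilobase of coding sequence Ptprn had 126 and Ptprn2 119 CPM, beside 161 for Ptprs. Ptprq and Ptprv had no count.

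**Figure D5:**
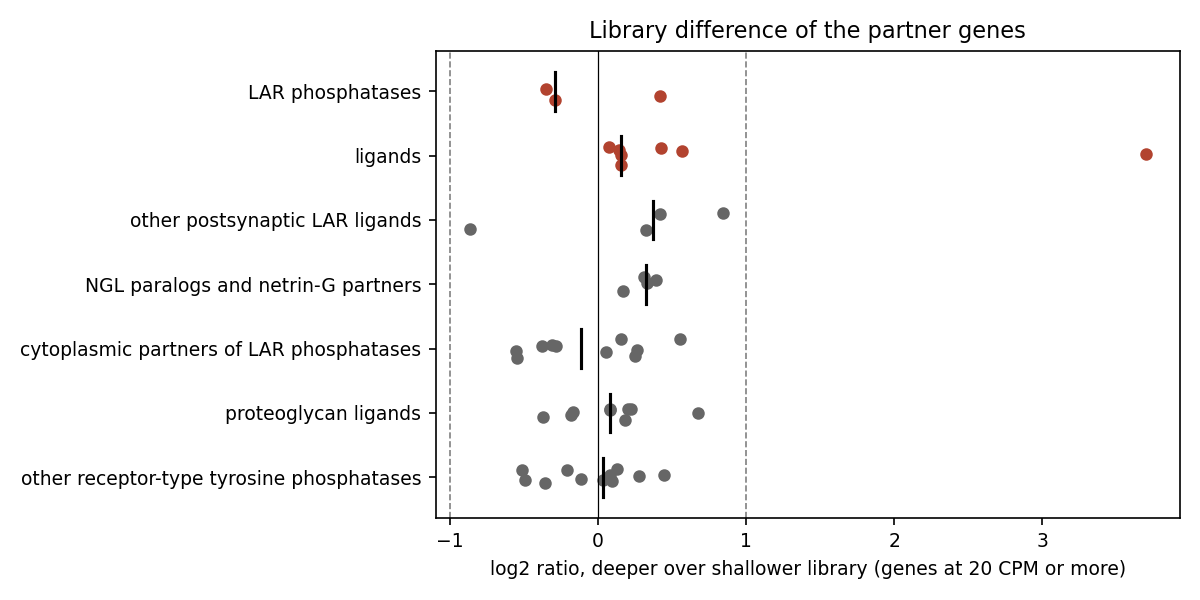
Log2 ratio of the deeper over the shallower library for genes at 20 CPM or more in each list (points), with the list median (black bar) and the 2-fold limits (dashed). The 10 genes described here are in red. Lrrc4b, which was included because of its disagreement, is the only point in the 7 lists beyond the 2-fold limits. Of all genes at 20 CPM or more, 3.93% lie beyond them.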

How the data were processed

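Hippocampal lysate RNA was sequenced in 2 input libraries. For both, the authors deposited raw gene-level counts together with FPKM. The tools listed per the submitters' processing notes, without roles, are BWA 0.7.12, MACS2 2.1.0 and HOMER, and the build is GRCm38. Which read counter, strand setting and annotation made the counts is not given in the sources used here. An FPKM value, as deposited, is the count over the library total and 1 length per gene, equal in both libraries for 100% of 18734 genes (tolerance 0.01 bases). Column names give the group and not the replicate. No column was left unused.

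Genes were named, placed and measured for length, GC content and sequence with GENCODE M21 (GRCm38), which held 52489 of the IDs. CPM used library totals. Ratios used TMM factors (0.951 deeper, 1.05 shallower) by edgeR 4.0.16 (R 4.3.3), taken from genes averaging 5 CPM or more. Size factors from DESeq2 1.42.0 were an alternative. GC trends were fitted by lowess (statsmodels 0.14.6, fraction 0.3). Ratio code was tested on simulated data. Genes and lists were chosen with earlier results of these data known. The text names the 10 genes, the 4 highest genes by CPM of each partner list, overlapping and neighbouring genes, and the 5 genes nearest to Lrrc4b in ratio. Slitrk6, Il1rapl2, Ptprq, Ptprv and Emc10, and the cell type markers named singly, fall outside this rule and were chosen after their values were seen. An edgeR comparison, as planned, of YTHDF2 IP with input was not made, because the columns analysed here are input columns only.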

Additional observations from a re-analysis of the deposited data

How the results depend on the processing

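No paired analysis was possible because the values are those of 1 group and the columns carry no replicate number that matches the labels. Of the 10 genes, 1 was at least 2-fold apart under all 5 other scalings, pseudocounts and GC settings and at minimums of 5, 20 and 50 CPM. That gene was Lrrc4b, which was included because of its disagreement, so the unchanged number is no independent check. All 10 genes averaged at least 25.5 CPM, so the minimums of 5 and 20 CPM removed none. Lrrc4b kept a log2 ratio between 3.56 (no factors) and 3.85 (GC trend removed). Without factors the median of all genes at 20 CPM or more was -0.10, against 0.04 with TMM, and the ratios of Slitrk2 (-0.07) and Slitrk1 (-0.00) lost their direction, as did those of Slitrk2 (-0.38) and Il1rapl1 (-0.35) with the GC trend removed. With CPM taken over nuclear protein-coding genes only, the phosphatases summed to 1638 and the ligands to 918 by construction of a smaller total. With each library alone the phosphatase sum was 1058 and 1364 CPM, the ligand sum 808 and 535 CPM, and the ligand to phosphatase ratio 0.764 and 0.393 (deeper, then shallower). That ratio averaged 0.578 by CPM, 0.388 by FPKM, 0.455 without Lrrc4b and 1.36 per coding length, the last added after seeing the data. Of the 10 ranks by FPKM, 6 held per longest transcript and 3 per coding sequence. With 52 counts of Lrrc4b, 67 of Slitrk2 and 70 of Il1rapl1 in the shallower library, counting error is widest for these genes.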
